A study of Mus musculus with 24 samples.

Results

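The transcripts of 7 red blood cell genes were measured in 4 mouse tissues, as a reading of the blood that each sample held: the alpha globins *Hba-a1* and *Hba-a2*, the beta globins *Hbb-bt* and *Hbb-b2*, the haem enzymes *Alas2* and *Fech*, and the membrane anion exchanger *Slc4a1*. They were found by the RefSeq accession of their probe (NM_008218, NM_001083955, NM_008220, NM_016956, NM_009653, NM_007998 and NM_011403). Each gene had 1 probe, so the set holds 7 of the 21368 genes named on the array and 7 of its 55681 non-control probes. Liver, brain, heart and skeletal muscle came from 3 wild-type (WT) and 3 Rap1 KI/KI male mice, 1 array for each mouse and tissue, 24 arrays in all. Rap1 KI/KI mice, called RAP1 MUT in the sample labels, are homozygous for the point mutation I312R in *Terf2ip*, the gene of the telomere protein RAP1. The allele was made by CRISPR/Cas9 editing and backcrossed 4 times to C57BL6 mice (C57BL/6N in the study's methods), and WT mice lack it. By the labels, the age was 5 months for mice WT1 and KI1 and 2 months for WT2, WT3, KI2 and KI3. The same 6 mice gave all tissues, and no treatment was applied.

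Haemoglobin is a tetramer of alpha and beta globin chains, each holding a haem group. Red cell precursors make it in very large amounts, and reticulocytes, the youngest circulating red cells, still carry globin mRNA after the nucleus is lost. Whole organs taken without removal of blood therefore contain these transcripts. ALAS2 starts haem synthesis in red cell precursors, FECH inserts iron at its last step in all cells that make haem, and SLC4A1 (band 3) exchanges chloride for bicarbonate across the red cell membrane.

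A level is the background-subtracted probe intensity divided by the array's 75th percentile, on a log2 scale, so 0 is that percentile and a step of 1 is a doubling. The percentile was 470.7 to 529.2 intensity units in the muscle and 569.4 to 1389 in the other tissues. All 7 probes were well above background on all 24 arrays, and none was flagged as saturated. The brightest, *Hba-a1*, reached 80.6% of the saturation value, *Hbb-bt* 63.0% and *Hba-a2* 62.9%, while *Slc4a1* stayed at or under 2.0%. The tissue labels were checked with defining markers: *Alb* had a mean level of 9.21 in the liver and at most 0.93 elsewhere, *Myh6* 8.87 in the heart and at most 0.42 elsewhere, *Myh4* 9.17 in the muscle and at most -3.24 elsewhere, and *Syp* 5.83 in the brain and at most 1.99 elsewhere. The muscle sample of KI3 stood apart, with a mean level of 3.44 over 5 brain markers against 0.69 to 1.75 in the other muscles. So did the heart sample of WT1, with a mean of 5.63 over 5 heart markers against 7.49 to 8.11. Among these markers *Myl7* varied most between hearts (SD 3.93), against an SD of 0.30 (*Tnni3*) to 0.92 (*Nppa*) for the others. The brain sample of WT1 stood apart as well, with a mean of 0.08 over 5 liver markers against -4.07 to -2.67. In whole tissue, fewer red cells and less RNA in each red cell cannot be told apart. Globin copies are nearly identical in sequence, so a globin probe may also read RNA of its paralogues, which was not tested.

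The promoters of an alpha globin, a beta globin and a haem enzyme gene are shown to set these kinds of member side by side. RefSeq sequences (GRCm38.p6) from 250 bases before to 50 bases after the start of transcription were held for 4 of the 7 genes. Capitals mark 3 kinds of short word, searched on both strands: the GATA words (AGATAA or else TGATAA, or these with a last base of G), the word CACCC (read as GGGTG on the other strand), and the word CCAAT (read as ATTGG on the other strand). GATA factors and CACCC-binding factors are regulators of red cell genes.
*Hba-a1*, chr11:32283422-32283721, plus strand: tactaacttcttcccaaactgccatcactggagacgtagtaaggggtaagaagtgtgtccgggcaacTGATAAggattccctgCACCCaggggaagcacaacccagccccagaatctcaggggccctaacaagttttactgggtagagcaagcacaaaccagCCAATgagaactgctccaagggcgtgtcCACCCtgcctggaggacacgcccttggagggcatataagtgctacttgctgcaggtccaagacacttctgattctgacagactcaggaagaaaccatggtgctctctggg
*Hbb-bt*, chr7:103813874-103814173, minus strand: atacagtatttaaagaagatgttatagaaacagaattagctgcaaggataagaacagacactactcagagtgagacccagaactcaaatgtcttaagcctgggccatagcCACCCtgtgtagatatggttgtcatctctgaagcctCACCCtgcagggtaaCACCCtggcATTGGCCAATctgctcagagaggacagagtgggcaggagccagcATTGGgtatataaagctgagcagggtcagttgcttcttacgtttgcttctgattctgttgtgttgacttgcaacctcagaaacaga
*Alas2*, chrX:150547167-150547466, plus strand: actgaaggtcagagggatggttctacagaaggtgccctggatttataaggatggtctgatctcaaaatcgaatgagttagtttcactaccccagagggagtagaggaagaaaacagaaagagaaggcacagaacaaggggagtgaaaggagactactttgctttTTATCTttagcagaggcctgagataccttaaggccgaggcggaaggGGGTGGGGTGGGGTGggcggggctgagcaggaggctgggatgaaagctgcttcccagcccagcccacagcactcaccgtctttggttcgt
The window of *Hba-a2* (chr11:32296242-32296541, plus strand) is the *Hba-a1* window moved by 3 bases, and the shared 297 bases were identical at all 297 positions. A GATA word lay 183 bases before the start in *Hba-a1*, 186 in *Hba-a2* and 86 in *Alas2*, on the minus strand in the last. The *Hbb-bt* window held 0 of these 4 words, which says only that the letters are not in this window. CACCC was in all 4 windows and CCAAT in the globin windows but not in that of *Alas2*. Of 32851 mouse promoters of this length, 29.8% held a GATA word, 57.5% CACCC and 37.4% CCAAT, so the matches are a description and not binding sites.

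The heart had the highest mean and the brain the lowest mean of each of the 7 genes. *Hba-a1* ran from 9.14 (lowest) over 9.44 (median) to 9.98 (highest) in the 6 hearts, from 8.28 over 8.49 to 8.52 in the livers, from 7.02 over 7.93 to 8.62 in the muscles and from 6.23 over 6.65 to 7.07 in the brains. No heart overlapped any other tissue, and no brain overlapped the liver. *Hbb-bt* was spread in the same order, with 8.69, 8.98 and 9.39 in the heart, 6.79, 7.28 and 7.80 in the liver, 5.70, 6.80 and 7.61 in the muscle, and 5.34, 5.70 and 6.18 in the brain. *Hbb-b2* had the widest span of the globins, with 8.19, 8.60 and 8.85 in the heart, 5.23, 6.02 and 6.77 in the liver, 3.92, 4.72 and 5.80 in the muscle and 3.43, 3.77 and 4.29 in the brain. In these beta globins the muscle overlapped both the liver and the brain. *Hba-a2* had the narrowest span, with 8.79, 9.05 and 9.46 in the heart, 8.38, 9.08 and 9.35 in the muscle, 8.40, 8.74 and 9.19 in the liver, and 7.46, 7.93 and 8.07 in the brain. Its heart, muscle and liver values overlapped and its brain values lay below all others. The brain and heart means were 2.33-fold apart in *Hba-a2*, 7.11-fold in *Hba-a1*, 9.71-fold in *Hbb-bt* and 26.7-fold in *Hbb-b2*. The *Hba-a2* probe was at 22.3% to 62.9% of the saturation value over the 24 arrays and that of *Hbb-b2* at 1.01% to 47.4%, and the part of this brightness in the narrow span was not tested.

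**Figure D1:**
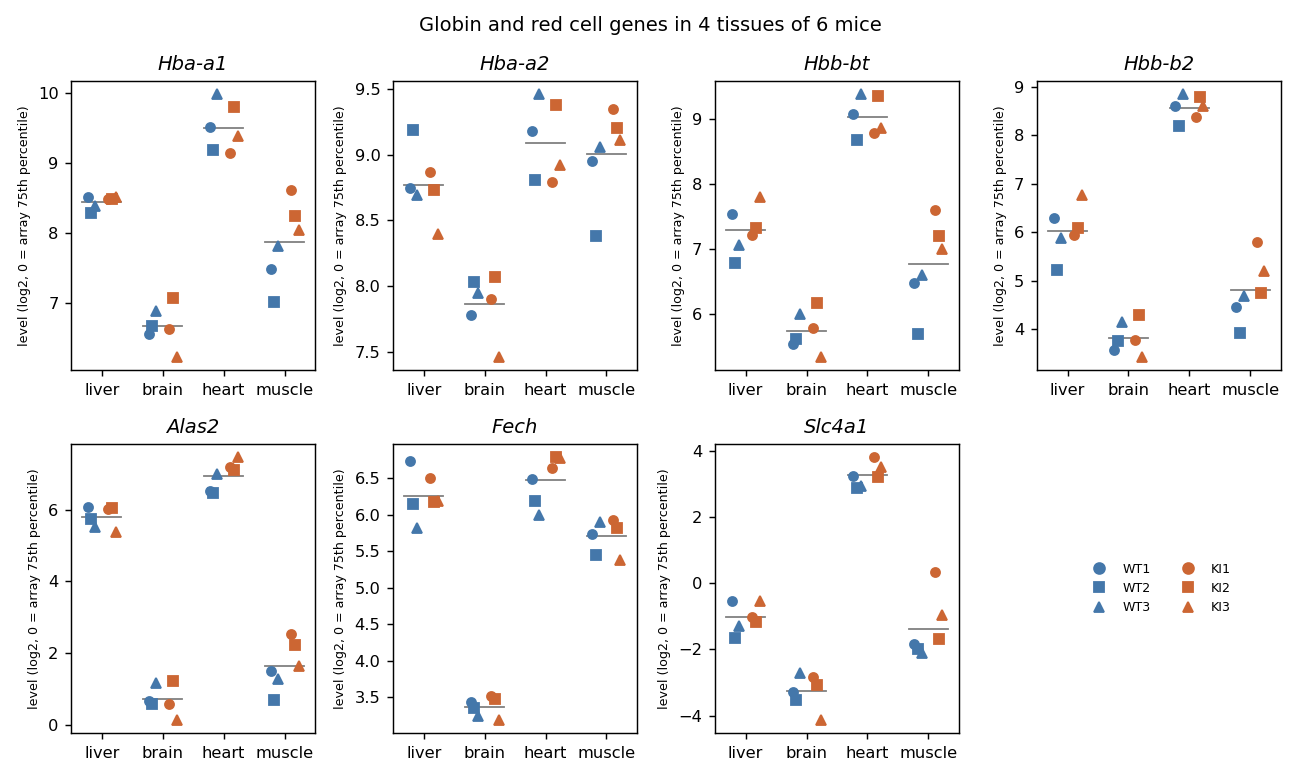
Levels of the 7 genes (y axis, log2, where 0 is the array's 75th percentile, a different range for each gene) in 4 tissues (x axis). Each point is 1 mouse, blue for WT and orange for Rap1 KI/KI, and the grey line is the mean of 6 mice. The heart mean is highest and the brain mean lowest in each panel, and the orange points of the muscle lie above the blue ones except for *Fech*.

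Outside the globins, the genes fell into different tissue patterns. *Alas2* had 6.45, 7.04 and 7.47 as its lowest, median and highest level in the heart and 5.37, 5.87 and 6.08 in the liver, against 0.69, 1.56 and 2.54 in the muscle and 0.14, 0.62 and 1.22 in the brain. Heart and liver were thus far above muscle and brain, by 39.6-fold between heart and muscle and by 17.7-fold between liver and muscle. *Fech*, which is used by most cells, was at 6.0, 6.56 and 6.79 in the heart, 5.82, 6.18 and 6.73 in the liver, 5.38, 5.78 and 5.92 in the muscle and 3.19, 3.39 and 3.52 in the brain, the brain alone standing far below the rest. *Slc4a1* was at 2.86, 3.22 and 3.81 in the heart, and at -1.66, -1.08 and -0.54 in the liver, -2.12, -1.76 and 0.34 in the muscle and -4.12, -3.19 and -2.71 in the brain. It was 19.6-fold higher in the heart than in the liver and 24.8-fold higher than in the muscle, while liver and muscle overlapped.

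In a limma fit of the 24 arrays to 8 group means, with Benjamini-Hochberg adjustment over 42322 probes, all 7 genes were higher in the heart than in the brain at an adjusted p under 0.05, where 39.9% of all probes tested were called in that direction. All 7 were higher in the liver than in the brain (45.6% of all probes) and in the muscle than in the brain (41.4%). Of the 7, 6 were higher in the heart than in the muscle (21.0%), 5 in the heart than in the liver (32.3%), and 5 in the liver than in the muscle (34.9%). Pairs of tissues that were not called were heart and muscle for *Hba-a2* (0.08, standard error 0.17, adjusted p = 0.73), heart and liver for *Hba-a2* (0.32, 0.17, adjusted p = 0.11) and *Fech* (0.22, 0.16, adjusted p = 0.23), liver and muscle for *Slc4a1* (0.34, 0.30, adjusted p = 0.31), and liver and muscle for *Hba-a2* (-0.24, 0.17, adjusted p = 0.22). The largest differences were those between heart and brain, 6.52 (0.30) for *Slc4a1*, adjusted p = 4.7e-13, and 6.23 (0.22) for *Alas2*, adjusted p = 1.1e-14.

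Some of these calls depended on the scaling. The median of all probes was 0.35 higher in the liver, 0.27 higher in the heart and 0.30 higher in the muscle than in the brain on this scale, and 0.16, 0.16 and 0.15 higher after quantile normalization. *Hba-a1* was higher in the muscle than in the brain by 1.20 and *Hbb-bt* by 1.02, but after quantile normalization the differences were -0.10 and -0.07 (adjusted p = 0.61 and 0.76). *Hba-a2* turned from 1.14 to -0.35 (adjusted p = 0.0094), and *Hbb-b2* was no longer called (0.29, adjusted p = 0.23). Between liver and brain, *Hba-a2* went from 0.91 to -0.09 (adjusted p = 0.45) and *Hbb-bt* from 1.54 to 0.26 (adjusted p = 0.23), and between heart and brain *Hba-a2* went from 1.22 to 0.23 (adjusted p = 0.082). *Alas2*, *Fech* and *Slc4a1* kept all their calls against the brain under both scalings, and so did *Hba-a1*, *Hbb-bt* and *Hbb-b2* between heart and brain. Among the other tissues, quantile normalization added calls between heart and liver for *Fech* (0.76, adjusted p = 1.4e-05) and *Hba-a2* (0.32, adjusted p = 0.017) and between heart and muscle for *Hba-a2* (0.58, adjusted p = 0.00032). Between liver and muscle, *Hba-a2* turned to 0.26 (adjusted p = 0.048), and the calls of *Fech* (0.16, adjusted p = 0.24) and *Hbb-bt* (0.33, adjusted p = 0.14) were lost. Quantile normalization gives the brightest probes of each array similar values, and the globins are among the brightest.

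**Figure D2:**
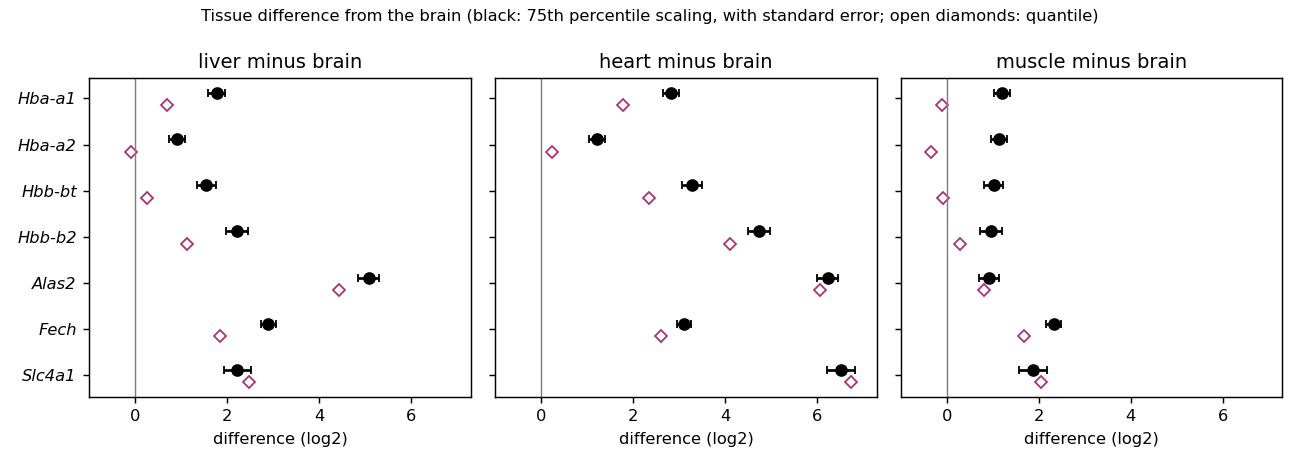
Difference of the liver, the heart and the muscle from the brain (x axis, log2) for the 7 genes (rows). Black points with bars give the limma estimate and its standard error under 75th percentile scaling, and open diamonds the estimate after quantile normalization. The diamonds of *Hba-a1*, *Hba-a2* and *Hbb-bt* lie at or below 0 in the muscle panel, while those of *Alas2*, *Fech* and *Slc4a1* stay above 0 in each panel.

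The probes did not change in proportion between tissues. The gap by which *Alas2* lay below *Hba-a1* on the same array was 2.55 (SD 0.49, n = 6) in the heart and 2.65 (0.29) in the liver, and 5.95 (0.16) in the brain and 6.23 (0.23) in the muscle. The gap of *Slc4a1* was 6.24 (0.59) in the heart and 9.25 (0.63) to 9.93 (0.36) elsewhere, and that of *Hbb-b2* 0.93 (0.14) in the heart and 2.40 (0.43) to 3.07 (0.25) elsewhere. The heart thus stood apart from the other tissues in *Slc4a1* and *Hbb-b2*, and heart and liver together stood apart from brain and muscle in *Alas2*. *Hba-a2* lay above *Hba-a1* by 1.19 (0.13) in the brain, 1.14 (0.27) in the muscle and 0.33 (0.33) in the liver. In the heart it lay 0.41 (0.07) below. Probes differ in brightness, so the size of a gap cannot be read, and only its change between tissues was described. The *Hba-a1* probe was at 72.4% to 80.6% of the saturation value in the hearts and at 8.71% to 65% in the other tissues. The part of this brightness in the change of the gaps was not tested.

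Other genes of the red cell were looked at as lists. Of 16 red cell membrane genes, 15 were higher in the heart than in the liver (32.3% of all probes) and 0 lower (median liver minus heart -3.33 on the log2 scale), and 10 were higher (21.0% of all probes) and 2 lower in the heart than in the muscle. The defining membrane gene *Epb42* (protein 4.2) was well above background on all 6 heart arrays and on 0 liver, brain and muscle arrays. *Gata1*, the main transcription factor of red cell precursors and megakaryocytes, was measured on 6 hearts, 2 muscles, and no liver or brain. The genes lower in the heart were *Sptb*, which encodes a spectrin (heart minus muscle -0.91, adjusted p = 0.00063), and *Tmcc2* (-1.58, adjusted p = 5.2e-07). *Ank1*, the ankyrin that ties band 3 to spectrin, was not called (-0.39, adjusted p = 0.29). Of 17 late red cell genes tested, 13 were higher and 1 lower in the heart than in the muscle. *Tent5c* (5.06 against 0.70), *Isg20* (5.12 against 1.40) and *Ube2l6* (4.66 against 0.63) were among the former. Which cells gave the transcripts of the late red cell list was not tested. Of 10 platelet genes, 9 were higher in the heart than in the liver and 10 higher than in the muscle, and their part in the member differences was not tested.

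The liver showed a different selection. *Klf1*, a CACCC-binding factor of red cell precursors, was measured on all 6 livers at a mean of -0.62 (SD 0.58) and on 1 brain, 2 hearts and 2 muscles, and was 4.85 (standard error 0.31) higher in the liver than in the heart, adjusted p = 3.4e-11. The embryonic beta-like globins *Hbb-y*, *Hbb-bh1* and *Hbb-bh2* were well above background on 6 of 6 livers and on 3, 2 and 0 hearts. All 3 were higher in the liver than in each other tissue by the limma fit, and the embryonic alpha-like *Hba-x* was measured on 0 of 24 arrays. *Car1*, the red cell carbonic anhydrase, had a mean of 1.05 (0.22) in the liver and -2.0 (0.33) in the heart. The lists of these 2 genes did not share this direction as a whole. Of 17 late red cell genes tested, 4 were higher and 10 lower in the liver than in the heart (median -0.93). Of 8 erythroid transcription factors, 2 were higher and 3 lower (median -0.35), where 32.3% of all probes were lower in the liver. All 9 genes of haem synthesis were higher in the liver than in the brain (45.6% of all probes), and 8 were higher (34.9% of all probes) and 1 lower in the liver than in the muscle, with a median of 1.17 over the list. Liver cells also make haem for enzymes of their own.

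The effect of the Rap1 mutation was compared within each tissue. In each of the 4 tissues, limma called 0 of the 7 members and 0% of all probes (32343 to 37800 tested) at an adjusted p of 0.05. The values below are therefore differences that failed the correction. In the muscle, 6 of the 7 genes were higher in all 3 Rap1 KI/KI mice than in all 3 WT mice, where 2.36% of all probes tested were separated in this direction and 4.09% in the other. At an unadjusted p under 0.05, 5 of the 7 were higher, against 1.44% of all probes. The median difference of the 7 was 0.89 and that of all probes -0.07.

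*Hba-a1* had levels of 7.48, 7.02 and 7.82 in the muscles of WT1, WT2 and WT3 and 8.62, 8.24 and 8.04 in those of KI1, KI2 and KI3, a difference of 0.86 (standard error 0.28, 1.82-fold, adjusted p = 0.94). *Hbb-bt* had 6.48, 5.70 and 6.60 in WT and 7.61, 7.20 and 7.01 in Rap1 KI/KI muscles, a difference of 1.02 (0.30, adjusted p = 0.94). WT2 was the lowest and KI1 the highest muscle in both. *Hbb-b2* had 4.47, 3.92 and 4.68 against 5.80, 4.75 and 5.20, a difference of 0.89 (0.33). *Hba-a2* had 8.95, 8.38 and 9.06 against 9.35, 9.20 and 9.11, the smallest difference of the globins at 0.43 (0.24, unadjusted p = 0.12 by limma), which was 0.22 without WT2. In *Hbb-b2* and *Hba-a2* the lowest Rap1 KI/KI muscle was close to the highest WT muscle. *Alas2* had 1.49, 0.69 and 1.27 against 2.54, 2.23 and 1.63, a difference of 0.98 (0.32, 1.98-fold, adjusted p = 0.94). *Slc4a1* had -1.83, -1.98 and -2.12 against 0.34, -1.69 and -0.97, a difference of 1.21 (0.48), which was 0.65 without KI1. *Fech* did not separate, with 5.74, 5.45 and 5.90 against 5.92, 5.82 and 5.38 and a difference of 0.01 (0.23). The exact permutation test gave p = 0.1 for each of the 6 separated genes, two-sided, the smallest that 3 mice against 3 allow.

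**Figure D3:**
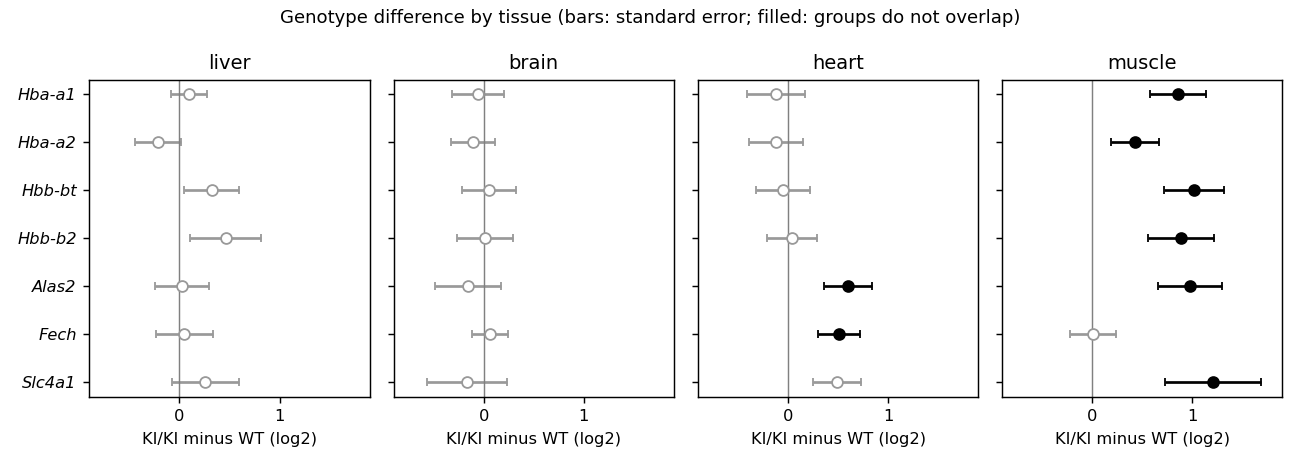
Level of Rap1 KI/KI minus WT mice (x axis, log2) of the 7 genes (rows) in each tissue. Points are limma estimates with standard errors, 3 mice per genotype, and filled points mark genes with all Rap1 KI/KI mice above all WT mice. In the muscle 6 points are filled, in the heart those of *Alas2* and *Fech*, and in the liver and the brain none.

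The muscle samples also differed in transcripts of other blood and marrow cells. Of 10 neutrophil genes tested, 10 had a positive difference (median 2.46) and 2 were separated and higher (2.36% of all probes). Of the 10, *Ngp* and *Retnlg* were well above background on only 3 of the 6 muscles, the fewest that the filter allows. *Mmp8* and *Cxcr2* were so on 2 and were not tested, so the count and the median are partly set by the filter. *S100a8* was at -3.11, -1.20 and -3.16 in WT and 3.74, -1.12 and 1.08 in Rap1 KI/KI muscles, with KI1 and KI3 far above the rest and KI2 next to WT2. The mean level over the 12 neutrophil genes was -3.51 to -2.24 in WT muscles, 1.70 in KI1, -0.64 in KI3 and -2.84 in KI2. Of 6 platelet genes tested, 4 were separated with Rap1 KI/KI higher (2.36% of all probes). Among these 4 were *Ppbp* (2.27, standard error 0.42), *Gp9* (2.49, 0.42) and *Treml1* (1.95, 0.43), all with adjusted p = 0.94 by limma. The remaining gene, *Clec1b*, was well above background on only 3 of the 6 muscles, the fewest that the filter allows. A gene that is high in 1 genotype can enter at that limit, so its separation is partly set by the filter. The platelet mean was -4.26 to -3.77 in WT and -3.22 to -2.67 in Rap1 KI/KI muscles. Of 16 late red cell genes tested, 5 were separated and higher (2.36% of all probes). The list mean was 0.27 to 0.40 in WT and 0.68 to 0.76 in Rap1 KI/KI muscles. One of the separated genes, *Trim10*, was also well above background on only 3 of the 6 muscles. Of 9 membrane genes tested, 4 had a positive difference (median -0.09) and only the member *Slc4a1* was separated. Of 9 haem synthesis genes, 4 were positive (median -0.01) and only the member *Alas2* was separated. Of 6 iron uptake genes, 2 were positive (median -0.08) and 0 separated. Of 5 erythroid transcription factors tested, 3 were positive (median 0.03) and *Gfi1b* was separated. All 8 erythroid transcription factors were well above background in KI1 and KI3 and 4 or 5 in each of the other muscles, while *Epb42* was not well above background in any of the 6. The mean of 10 endothelial genes overlapped, at 1.87 to 2.24 in WT and 1.93 to 2.39 in Rap1 KI/KI muscles. More probes stood well above background in Rap1 KI/KI muscles (57.5% to 61.8%) than in WT muscles (56.5% to 57.3%). Without KI3, the muscle with high brain markers, the difference was 0.99 for *Hba-a1*, 1.24 for *Alas2* and 1.31 for *Slc4a1*. The part of the neutrophil and platelet transcripts and of the share of probes above background in the differences of the members was not tested.

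**Figure D4:**
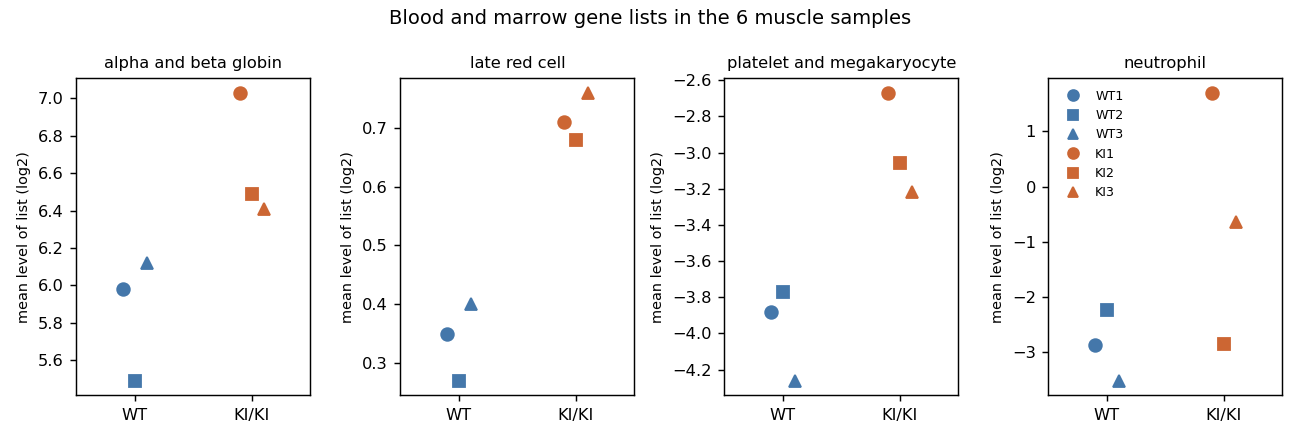
Mean level (y axis, log2, a different range for each panel) of 4 gene lists in the 6 muscle samples, WT in blue and Rap1 KI/KI in orange, 1 point for each mouse. The globin, late red cell and platelet lists are higher in all 3 Rap1 KI/KI muscles, whereas in the neutrophil list KI1 and KI3 are high and KI2 is within the WT range.

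In the heart, the levels of the globins and of some other red cell genes parted. The differences of the 4 globins were -0.12 (0.29), -0.12 (0.27), -0.05 (0.27) and 0.04 (0.25) for *Hba-a1*, *Hba-a2*, *Hbb-bt* and *Hbb-b2*, with overlapping values. The *Hba-a1* probe was at 72.4% to 80.6% of the saturation value in the hearts, and that of *Hbb-b2* at 33.8% to 47.4%. The array's 75th percentile ran from 569.4 to 1106.6. The *Hba-a1* level was highest in WT3 (9.98), where that percentile was lowest. Signals so near the top may hide a change, and their part in the small globin differences was not tested. *Alas2* had 6.52, 6.45 and 6.98 in the hearts of WT1, WT2 and WT3 and 7.18, 7.10 and 7.47 in those of KI1, KI2 and KI3, a difference of 0.60 (0.24, 1.51-fold, adjusted p = 0.65). *Fech* had 6.49, 6.18 and 6.0 against 6.64, 6.79 and 6.78, a difference of 0.51 (0.21, adjusted p = 0.65). These 2 genes separated the genotypes, where 6.03% of all probes did so in this direction and 8.69% in the other. They were also the 2 members with an unadjusted p under 0.05, at which 5.09% of all probes were higher. *Slc4a1* had 3.24, 2.86 and 2.94 against 3.81, 3.19 and 3.51, a difference of 0.49 (0.24) in which WT1 and KI2 overlapped. More probes stood well above background in Rap1 KI/KI hearts (62.6% to 65.6%) than in WT hearts (59.1% to 60.8%), and the part of this in these differences was not tested. Without WT1, the heart with the low mean over the heart markers, the differences were 0.53 for *Alas2*, 0.65 for *Fech* and 0.61 for *Slc4a1*.

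Some of the late red cell genes were also higher in Rap1 KI/KI hearts. Of 17 tested, 8 were higher in all 3 Rap1 KI/KI hearts (6.03% of all probes) and 0 lower (8.69%). Of these 8, 6 had an unadjusted p under 0.05 by limma, at which 5.09% of all probes were higher. The median difference was 0.45 against -0.02 for all probes. *Isg20* differed by 1.09 (standard error 0.21), *Tent5c* by 1.07 (0.30) and *Ube2l6*, a ubiquitin-conjugating enzyme, by 0.98 (0.20). Genes of this list are not particular to red cells, and the cell source of these differences was not tested. *Bpgm*, the enzyme that makes the haemoglobin ligand bisphosphoglycerate, had 4.47, 4.45 and 4.02 in WT and 5.06, 4.93 and 5.20 in Rap1 KI/KI hearts, a difference of 0.75 (0.22, adjusted p = 0.65). *Rsad2*, *Bnip3l* and *Ube2o* were also separated, at 0.73, 0.72 and 0.45. Of the 17, 12 had a positive difference, and the other 5 were *Fbxo7* (-0.12), *Hemgn* (-0.20), *Prdx2* (-0.27), *Epor* (-0.35) and *Trim58* (-0.40), none of which separated. Of 16 red cell membrane genes, 6 were higher in all Rap1 KI/KI hearts (6.03% of all probes), among them *Epb41* 0.61, *Tspo2* 0.82, *Kel* 0.70, *Rhag* 1.51 and *Add2* 0.88. *Sptb* and *Tmcc2* were lower in all (8.69% of all probes), and 4 genes were higher in all after normexp background correction. Of 6 genes of iron uptake, 2 had a positive difference (median -0.16), the mitochondrial iron importer *Slc25a37* was higher in all Rap1 KI/KI hearts by 0.71 (0.25) and *Steap3* was lower in all (-0.26). Platelet genes did not separate (0 of 10, median 0.02), nor did neutrophil genes (0 of 12, median 0.64). Of 10 endothelial genes, 0 had a positive difference (median -0.30), with *Esam* (-0.36) and *Tie1* (-0.88) lower in all Rap1 KI/KI hearts (8.69% of all probes). The part of the endothelial genes in the differences above was not tested. None of these list genes passed the adjusted threshold.

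**Figure D5:**
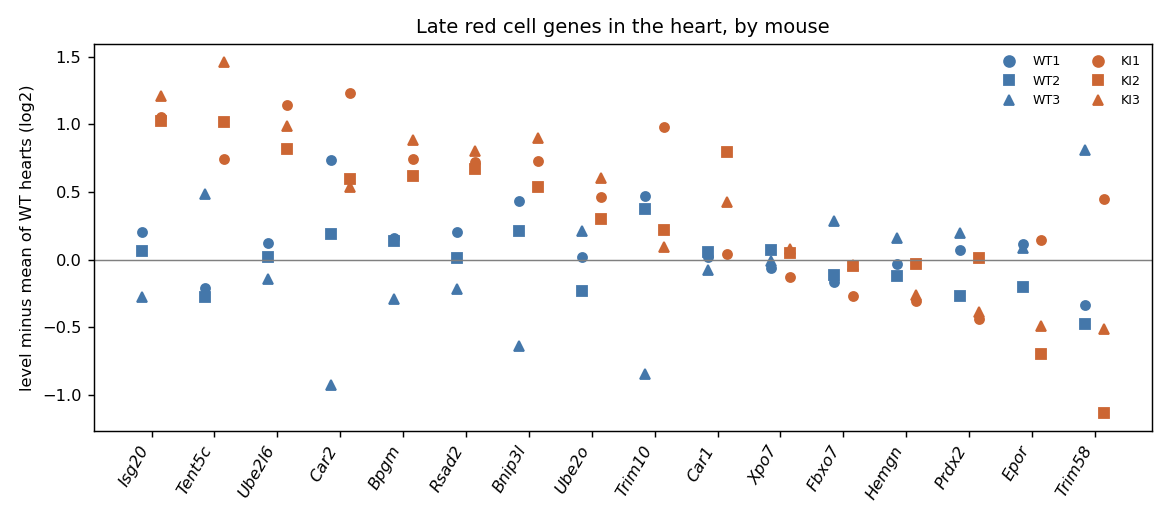
Late red cell genes (16 of the 17 tested) in the 6 hearts, each level minus the mean of the 3 WT hearts (y axis, log2), with genes ordered by their difference along the x axis. Points are mice, blue for WT and orange for Rap1 KI/KI. All 3 orange points are above the blue ones for 7 of the 16 genes, *Isg20* to *Ube2o* except *Car2*, and not for those to their right.

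In the liver and the brain, 0 of the 7 genes separated the genotypes and 0 had an unadjusted p under 0.05. Of all probes, 2.77% and 4.01% were higher in all Rap1 KI/KI mice, 3.07% and 3.74% lower in all, and 1.25% and 1.11% higher at an unadjusted p under 0.05. The median difference was 0.10 in the liver, between -0.21 (0.23) for *Hba-a2* and 0.46 (0.35) for *Hbb-b2*. It was -0.06 in the brain, between -0.17 (0.40) for *Slc4a1* and 0.06 (0.18) for *Fech*. In the brain KI2 had the highest and KI3 the lowest *Hba-a1*, so both extremes were Rap1 KI/KI mice. Without WT1, the brain with high liver markers, the brain differences ran from -0.23 for *Alas2* and *Slc4a1* to 0.11 for *Fech*. Of the genes in the red cell lists, *Slc25a37* (-0.54), *Epor*, the erythropoietin receptor (-0.55), and *Ldb1* (-0.27) were lower in all Rap1 KI/KI brains, and the water channel *Aqp1* (1.04) and *Abcb10* (0.29) were higher in all. Whether the genotype difference varied between tissues was tested with the interaction F test of limma, which called 0 of 42322 probes (0%). Among the members *Hba-a1* had the lowest unadjusted p, 0.052, and all 7 had an adjusted p of 1, so the difference between muscle and the other tissues did not pass the threshold.

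The 7 genes varied together between mice in some tissues. With each level taken relative to the mean of its tissue, all 21 pairs of genes had a positive correlation over the 6 arrays of the brain (0.27 to 0.99, median 0.77) and of the muscle (0.18 to 0.99, median 0.84). In the heart 13 of 21 pairs were positive (-0.46 to 0.99, median 0.12) and in the liver 15 of 21 (-0.94 to 0.98, median 0.37). The globins stayed close to each other in the heart (0.91 to 0.99). There their mean deviation was highest in WT3 (0.37), which also had the lowest 75th percentile of the hearts (569.4). In the liver *Hba-a2* ran against the beta globins, with WT2 highest in *Hba-a2* (9.19) and lowest in *Hbb-b2* (5.23). Before scaling, the *Hba-a2* signal of WT2 was the lowest of the livers, at 43.0% of the saturation value. Its 75th percentile was the lowest as well (573.1 against 952.3 to 1389). The part of the scaling in these patterns was not tested. The correlations are descriptions over arrays that share mice, slides and scaling. Over all 24 arrays, the deviation of the mean of the 4 globins had a correlation of 0.71 with *Alas2*, 0.65 with *Slc4a1* and 0.24 with *Fech*. Among 12713 other genes, those most like the globins by this measure were *Zdhhc22* (0.76), *Mdh1* (0.68), *Ankrd13b* (0.67), *Fam117b* (0.66), *Acsf3* (0.66), *Agpat3*, *Tnnt1* and *Mrpl41* (0.65 each), and *Zfp672* and *Lancl2* (0.64 each). No gene exceeded 0.8, and of these 10 only 5 were among the top 50 after quantile normalization and 3 when genotype means were also removed. *Hbb-b1*, a further beta globin that is no member, had a correlation of 0.58 and was separated in the muscle (2.53, 2.43 and 2.45 in WT, 3.77, 3.07 and 2.72 in Rap1 KI/KI).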

How the data were processed

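Total RNA was labelled by low-input amplification and hybridized to 1-color Agilent arrays, with a fibrous tissue kit for heart and muscle and a standard kit for brain and liver. The authors deposited intensity values after background subtraction in the scanner software (Feature Extraction 12.0.3.1). Arrays had not been normalized to each other. The authors also deposited score values, which are z-scores of log10 signals within each array. Recomputed z-scores were within 0.005 of them. The test used by the authors is not given in the sources used here.

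Control spots (3671) and flagged outlier spots were left out, spots of a probe were averaged, and log2 levels were taken relative to the 75th percentile. Names came from RefSeq accessions (28331 of 55681 probes, 21368 genes). Among several probes of a listed gene, the one with the highest mean level was used. Members have 1 probe each, so no other probe could be tried. A probe entered a test if 3 or more of 6 arrays measured it well above background. Tests were run with limma 3.58.1 in R 4.3.3 (with statmod 1.5.0), two-sided, threshold 0.05, within each tissue for genotype and over 24 arrays (3 of 6 in any tissue) for tissues and interaction. The precision is limited by the number of arrays, 3 per group.

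Alternatives were quantile normalization, normexp (offset 50, on median foreground and background signals), the authors' z-scores, no filter on dim probes, a filter on all arrays, trend and robust eBayes, all arrays in a single fit, age or slide as a block, the mouse as a replicate block, and each mouse left out. The same mice gave all tissues, and the consensus correlation of a mouse across its tissues was 0.026. Liver and muscle arrays were each on 1 slide. Members and lists were chosen with earlier results of these data known. All members were named, as were list genes that separated the genotypes or mark a cell type, and the 10 genes most like the globins. The values of some list genes are not reported here, though they stay in the counts. The lists of B cells, T cells, mast cells, macrophages, bone, and haem clearance had at most 2 genes separated in either direction in any tissue. The procedures were tested on simulated data.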

Additional observations from a re-analysis of the deposited data

How the results depend on the processing

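The counts of members called for genotype in each tissue and for the interaction stayed at 0 under each alternative. Under quantile normalization 4 members, in place of 7, were called between brain and muscle, and with the authors' z-scores 3, in place of 5, between liver and muscle. Quantile normalization called 7 members, in place of 5, between liver and heart, 7, in place of 6, between heart and muscle, and 4, in place of 5, between liver and muscle. With a mouse left out, 4 to 6 were called between liver and muscle, where *Hbb-bt* lost its call without WT1, WT2, KI2 or KI3, and 5 or 6 between liver and heart. Directions that turned with quantile normalization were those between brain and muscle, brain minus muscle, for *Hba-a1* (0.10), *Hba-a2* (0.35) and *Hbb-bt* (0.07), *Hba-a2* for liver minus brain (-0.09) and liver minus muscle (0.26), and the genotype differences of *Hba-a2* in the liver (0.08) and of *Hba-a1* (0.05) and *Hbb-bt* (0.08) in the heart. With z-scores, *Hba-a1*, *Alas2* and *Fech* in the liver had -0.01. The cause was not tested.

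With a mouse left out, genotype differences that were near 0 changed sign. In the brain the ranges were -0.27 to 0.14 for *Hba-a1*, -0.24 to 0.07 for *Hba-a2*, -0.16 to 0.26 for *Hbb-bt*, -0.22 to 0.21 for *Hbb-b2*, -0.45 to 0.10 for *Alas2* and -0.43 to 0.22 for *Slc4a1*. In the heart they were -0.31 to 0.09 for *Hba-a1*, -0.29 to 0.04 for *Hba-a2*, -0.23 to 0.12 for *Hbb-bt* and -0.14 to 0.19 for *Hbb-b2*. In the liver they were -0.10 to 0.25 for *Alas2* and -0.16 to 0.30 for *Fech*, and in the muscle -0.11 to 0.17 for *Fech*. The heart minus muscle difference of *Hba-a2* ran from -0.01 to 0.18. The muscle differences of the 6 separated members, which cannot change sign when a mouse is left out, ran from 0.65 to 1.05 for *Hba-a1*, 0.22 to 0.56 for *Hba-a2*, 0.73 to 1.19 for *Hbb-bt*, 0.62 to 1.15 for *Hbb-b2*, 0.75 to 1.24 for *Alas2* and 0.65 to 1.66 for *Slc4a1*.

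Counts of genes higher in all Rap1 KI/KI mice under quantile normalization, normexp or z-scores were alternatives added after the data were seen. They were 6 members and 4 platelet genes in the muscle, and 2 or 3 members, 8 late red cell genes and 4 or 5 membrane genes (in place of 6) in the heart. Leaving out a mouse cannot lower such a count and says nothing about its stability. The mouse as a replicate block, which pairs the tissues of a mouse (consensus correlation 0.026), changed no call of a member, and age or slide as a block gave 0 calls. Globin signals near the top of the scale limit what a change there can show.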
